A study of Rattus norvegicus with 6 samples.

Results

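The presymptomatic comparison set spinal cord of SOD1 G93A rats, taken before signs of disease, against spinal cord of wild-type (WT) littermates at the same stage. All rats were female Sprague-Dawley. Each genotype and stage was 1 pool of RNA from 5 rats on 1 Illumina rat BeadChip, a bead array with 1 intensity per probe, so 2 of the 6 arrays make up the comparison and 10 of 30 rats stand behind it. The other 4 arrays hold mutant and WT pools from disease onset and from end stage. Every array is labelled with an age of 10 weeks, although the study's design text gives that age for the presymptomatic stage alone, and the cord segment is labelled lumbar in one field and thoracic in another. The labels name the mutation but not the promoter that drives the transgene. A probe entered if its detection p was under 0.01 on either presymptomatic array, which held for 11237 of 22226 probes and gave 7892 named genes. Of these genes, 6405 were detected on both arrays, 153 in the mutant pool alone and 1334 in the WT pool alone.

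Mutations of SOD1, which encodes a cytosolic superoxide dismutase, cause a familial form of amyotrophic lateral sclerosis. In rodents that carry G93A SOD1, spinal motor neurons and their large neurofilament-rich axons are lost, while microglia and astrocytes become reactive as paralysis develops. A presymptomatic sample is taken from cord in which this late picture has not yet appeared. The design thus asks which transcripts already differ at that time.

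With 1 pool per genotype and stage, the difference between the presymptomatic pools has no replicate and no test. The 3 WT pools, which differ in stage, show how far pools without the mutation lie from each other. The deposited probe IDs were out of order relative to the intensities, and all gene names rest on sorting those IDs as text. After sorting, 1.38% of 1304 probes for sensory receptors of nose and tongue were detected on all 6 arrays (exact 95% interval 0.82 to 2.17%), against 37.8% as deposited. For 153 probes of ribosomal, respiratory chain and proteasome genes the shares were 90.8% (85.1 to 94.9%) after sorting and 41.8% as deposited. The presymptomatic mutant array had the fewest detected probes of the 6, at 9116. Its WT counterpart had the most, at 10942, and the other 4 arrays had between 10122 and 10584. The extraction protocol in the labels mentions a quality check of the RNA whose values are not given in the sources used here.

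Values are given on 2 scales. Intensities are the deposited, background-subtracted values in arbitrary units. Log2 differences are mutant minus WT after background correction, quantile normalization over the 6 arrays and log2, a scale whose lowest level was 6.62 and which understates differences of dim probes. The endogenous Sod1 transcript, measured by a rat probe that need not detect a human transgene, had an intensity of 8864 in the presymptomatic mutant pool, against 6923, 7300 and 8822 in the presymptomatic, onset and end-stage WT pools. Its log2 difference was 0.22 (1.17-fold), and the mutant level lay close to the highest WT pool. Patterning genes of caudal segments were bright in both presymptomatic pools. Hoxd10 had intensities of 2598 in the mutant pool and 1975 in the WT pool, Hoxa7 had 1402 and 1071, and Hoxb8 had 3360 and 4714. Of 9 HOX genes measured, 5 were higher and 4 lower in the mutant pool.

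The comparison was lopsided. At least 2-fold higher in the mutant pool were 30 genes (0.380% of those tested), while 208 (2.64%) were at least 2-fold lower, 194 of them detected on both arrays and 14 in the WT pool alone. Counted in both directions, 238 genes (3.02%) were 2-fold apart between the presymptomatic mutant and WT pools. Each of the 238 rests on 1 probe. The pairs of WT pools differed at 59 genes (0.748%, presymptomatic and onset), 61 genes (0.773%, presymptomatic and end stage) and 47 genes (0.596%, onset and end stage). Against the WT onset pool the same mutant array had 39 genes at least 2-fold higher and 179 lower, and against the WT end-stage pool it had 14 higher and 127 lower. The excess of lower genes therefore did not rest on which WT pool was used, although its size did. The median difference over all genes was 0.03, with 4361 genes (55.3%) above 0 and 3523 below.

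**Figure D1:**
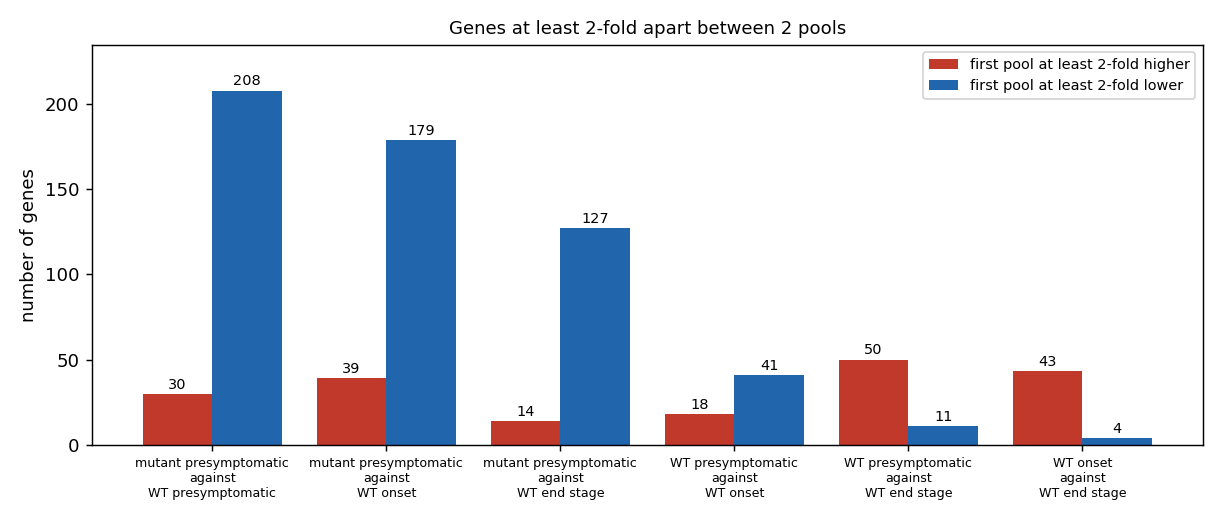
Number of genes at least 2-fold higher (red) or lower (blue) in the first pool named than in the second, over 7892 genes, with 1 array per pool. The presymptomatic mutant pool had 208, 179 and 127 genes lower than the 3 WT pools, whereas no pair of WT pools had more than 50 genes in 1 direction.

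A stricter count asked for genes that lay at least 2-fold outside each of the 3 WT pools. It left 2 genes above (0.0253%) and 69 below (0.874%). The genes above were Scaf1, which encodes a factor that binds RNA polymerase II, and Cuedc1, a ubiquitin-binding protein. Under a shift of each array to its 75th percentile in place of quantile normalization, which moved the median of all genes to 0.13, 0 genes were above and 72 below. Limma's moderated test of the lone mutant pool against the 3 WT pools, with 2 residual degrees of freedom, found 0 of 11237 probes (0%) under an adjusted p of 0.05. At an unadjusted p below 0.05 there were 1642 probes, 986 higher and 656 lower. The smallest adjusted p was 0.113, shared by Pkm, Qdpr and Pdia3. With a noise level regressed from the detection p-values in place of the inferred one, which spreads dim probes further, the same test called 331 probes, of which 8 were higher and 323 lower.

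**Figure D2:**
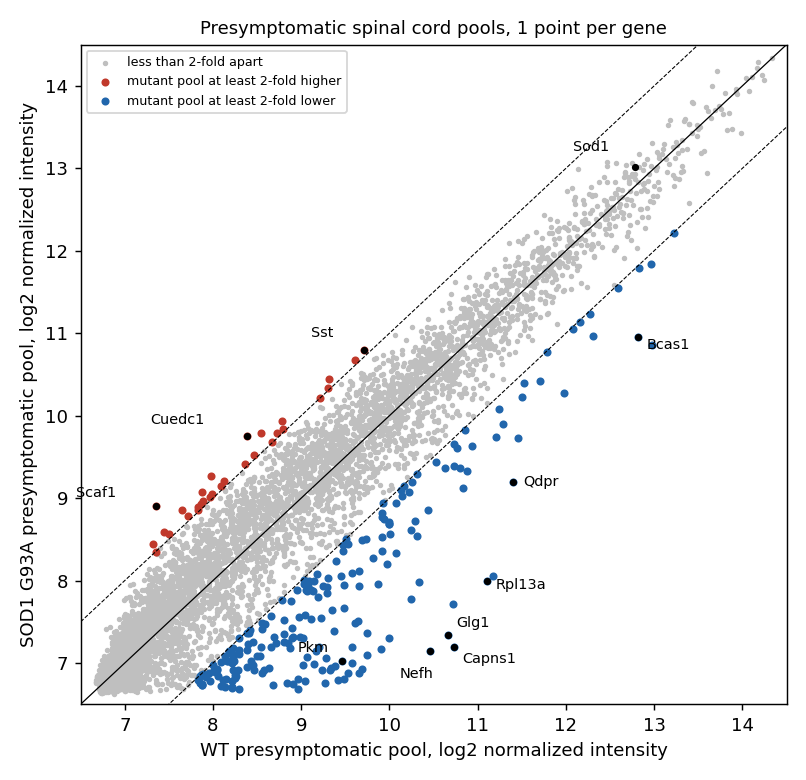
Normalized log2 intensity of each of 7892 genes in the presymptomatic mutant pool (vertical axis) against the presymptomatic WT pool (horizontal axis). The solid line marks equal levels and the dashed lines a 2-fold difference. The 208 blue points below the lower line reach far from it, with Capns1 at -3.53, whereas the 30 red points stay near the upper line.

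The largest deficits in the mutant pool belonged to genes of unlike function. Nefh, a neurofilament gene among them, is given with the motor neuron transcripts below. Capns1, the small subunit that calpain proteases need, had an intensity of 96.4 in the mutant pool, against 1778, 1289 and 811 in the presymptomatic, onset and end-stage WT pools. The log2 difference from the presymptomatic WT pool was -3.53, or 11.6-fold lower. Glg1, a Golgi glycoprotein, had 123 in the mutant pool, against 1702, 941 and 1228 in the same WT pools (log2 difference -3.32). In both genes the mutant value stood well below all 3 WT pools, and the mutant onset pool, at 1669 for Capns1 and 966 for Glg1, stood among the WT values. Cox7a2l, which encodes a protein that helps join respiratory chain complexes, had 272 in the mutant pool, against 2409, 1843 and 1559 in the WT pools (-3.12). Rpl13a, a protein of the large ribosomal subunit often used as a reference gene, had 260 in the mutant pool, against 2300, 3194 and 2409 in the WT pools (-3.10). Prpf19, a core factor of the spliceosome, had 116, against 1103, 1147 and 1226 (-2.68). The WT pools were close together for Prpf19, and the log2 difference from the nearest of them was also -2.68.

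Of the other genes among the 15 largest deficits, several had WT levels that were far apart. Snurf, transcribed from the imprinted Snrpn locus, had 199 in the mutant pool, against 1757, 1268 and 538 in the presymptomatic, onset and end-stage WT pools (-3.00). Slc48a1, a haem transporter, had 20.7 in the mutant pool, against 796, 758 and 224 in the WT pools (-2.68). Vsnl1, a calcium sensor of neurons, had 33.9 in the mutant pool, against 818, 589 and 238 in the WT pools (-2.65). For these 3 genes the WT end-stage pool lay between the mutant pool and the other WT pools. Eif5a, a translation factor, had 16.8 in the mutant pool, against 761, 583 and 404 in the WT pools (-2.63), and 1192 in the mutant pool of the onset stage. Praf2, Enpp5, Tmx2, Eml2 and Dpy19l1 had log2 differences between -2.79 and -2.58, and Nefh (-3.32) completed the 15.

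Some genes were detected before symptoms in WT cord but not in mutant cord, so only a bound of the fold can be given, set against the higher of the mutant value and the lowest detected signal. Timp2, an inhibitor of matrix metalloproteinases, was at least 5.69-fold lower in the mutant pool, with an intensity of 13.6 against 695, 676 and 146 in the presymptomatic, onset and end-stage WT pools. Bounds of 4.65-fold for the phosphatase subunit Ppp2r5b, 4.47-fold for the RNA helicase Ddx23, 4.23-fold for the ribosomal protein Rps2 and 3.82-fold for the pacemaker channel Hcn2 followed. The mutant end-stage pool was also dim for Timp2 (55.2) and Hcn2 (16.8), whereas for Rps2 it had 434, close to the 414 of its WT pool.

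The 3 smallest adjusted p-values belonged to Pkm, Qdpr and Pdia3, whose WT pools lay close together. Pkm, the pyruvate kinase of muscle and brain, had an intensity of 63.8 in the mutant pool, against 780, 825 and 705 in the presymptomatic, onset and end-stage WT pools. Limma put its log2 difference from the 3 WT pools at -2.42 ± 0.09 (SE; 1 mutant pool and n = 3 WT pools, adjusted p = 0.113). Qdpr, which regenerates the cofactor tetrahydrobiopterin and is strongly expressed in oligodendrocytes, had 628 in the mutant pool, against 2786, 2595 and 2562 (-2.14 ± 0.07, same adjusted p). Pdia3, a disulphide isomerase of the endoplasmic reticulum, had 393 in the mutant pool, against 1120, 1094 and 1069 (-1.43 ± 0.04, same adjusted p). None of the 3 passed the threshold. Cabp1, a neuronal calcium-binding protein, had 153 in the mutant pool, against 856, 924 and 1191 in the WT pools (-2.33 ± 0.28, adjusted p = 0.206). Pkm and Cabp1 were also far lower in the mutant pool at end stage, at 190 and 347. In the onset mutant pool they had 726 and 693, nearer to the 825 and 924 of its WT pool.

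**Figure D3:**
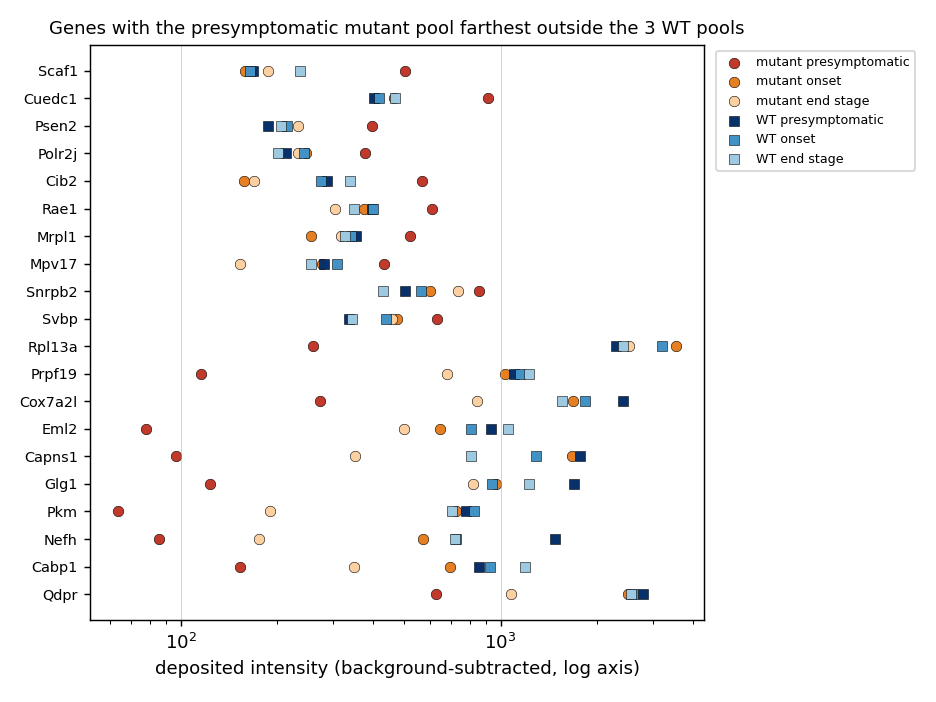
Deposited intensity (log axis) in all 6 pools of the 10 genes farthest above and the 10 farthest below the 3 WT pools in the presymptomatic mutant pool. Circles are mutant and squares WT pools, 1 array each. The red circle of the presymptomatic mutant pool stands to the right of every WT square in the upper 10 genes and to the left of every WT square in the lower 10, with the gap wider for the lower genes (Rpl13a 260 against 2300 or more).

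The genes higher in the mutant pool differed by less. Scaf1 had an intensity of 504 in the mutant pool, against 168, 165 and 236 in the presymptomatic, onset and end-stage WT pools (log2 difference 1.56, 2.95-fold). Cuedc1 had 912 in the mutant pool, against 402, 418 and 467 (1.36). Psen2, a presenilin of the gamma-secretase complex that cuts membrane proteins, had 397 in the mutant pool, against 188, 215 and 206 (1.14). In these 3 genes the mutant pools of onset and end stage lay within or near the WT range, at 159 and 188 for Scaf1, 464 and 409 for Cuedc1, and 210 and 232 for Psen2. Agtrap, a protein bound to the angiotensin II receptor, had 660 in the mutant pool, against 304, 503 and 407 (1.29). Cers5, a ceramide synthase, had 1045, against 513, 788 and 668 (1.16). For both, the presymptomatic WT pool was the lowest of the WT pools and made up part of the difference. Cib2, Reep6, Stoml2, Eef2k, Svbp, Tmem53, Tmed3, Adgrb2, Mrpl23 and Sst completed the 15 largest, with log2 differences from 1.07 to 1.25. Of 153 genes detected only in the mutant pool, the 5 with the largest bounds ran from 1.10-fold for Gabrd and Gapdhs to 1.20-fold for Ctf1, a cytokine that supports motor neurons.

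The 208 lower genes were next followed in the arrays that did not choose them. Their median normalized log2 level was 7.40 in the presymptomatic mutant pool and 9.18 in the presymptomatic WT pool, which the choice fixes. It was 8.82 in the mutant pool at onset, 7.99 in the mutant pool at end stage, 8.91 in the WT pool at onset and 8.64 in the WT pool at end stage. At onset, where mutant and WT pools of their own were compared, 0 of the 208 were at least 2-fold lower (0.190% of all genes were) and the median difference was -0.04. At end stage 31 of the 208 (14.9%) were at least 2-fold lower, against 1.88% of all genes, and the median difference was -0.35. Those 31 made up 20.9% of the 148 genes lower at end stage. Of the 208, 77 were in the brightest of 4 groups by mean level and 116 in the next. The 1.88% covers genes of all levels, and a share over genes of like level was not counted. In the opposite direction, 8 of the 208 (3.85%) were at least 2-fold higher at onset, where 1.89% of all genes were, and 8 at end stage, where 3.66% of all genes were. Of the 30 genes higher before symptoms, 1 was also higher at both later stages, the membrane protein gene Emp3, with 933 in the presymptomatic mutant pool against 501, 1065 and 701 in the WT pools. The deficit was thus seen before symptoms, was not seen in the onset pools, and was seen again for a part of the genes at end stage. In the WT arrays, 146 of the 208 (70.2%) were lower at end stage than at onset, against 46.8% of all genes, so most of these transcripts also differed in 1 direction between pools without the mutation. That difference and the low number of detected probes on the presymptomatic mutant array stand beside the result, and their part in it was not tested.

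The 7892 genes were divided by mean level into 4 groups of 1973. The share at least 2-fold lower was 3.9% in the brightest group and 5.88% in the next. In the dimmer groups, where the scale leaves little room for a 2-fold difference (the dimmest spans levels of 6.66 to 6.83), the shares cannot be read. The 2.64% set beside gene lists covers all genes, these dimmer groups included. It is thus a low background for a list of bright genes. Among lists of abundant genes of basic cell functions, the cytosolic ribosome and proteasome lists were not lower as a whole. The glycolysis and tricarboxylic acid cycle lists, given below, had medians of -0.32 and -0.25. Cytosolic ribosome genes were higher in 39 of 58 (67.2%, against 55.3% of all genes), with a median of 0.11. Of them 3.45% were at least 2-fold lower, against 2.64% of all genes and 3.9% of the brightest group. Proteasome genes were higher in 19 of 31 (61.3%, near the 55.3% of all genes), with a median of 0.12. Single abundant transcripts were low all the same. Actb, cytoplasmic actin, chosen here after its values were seen, had an intensity of 1941 in the mutant pool, against 7594, 6241 and 4991 in the presymptomatic, onset and end-stage WT pools. Eef2, the elongation factor of translation, had 5116 in the mutant pool, against 9187, 6240 and 8911 (log2 difference -1.01). Pfn1, an actin-binding protein that is mutated in some familial amyotrophic lateral sclerosis, had 591, against 1914, 1775 and 1379 (-1.71).

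Motor neuron transcripts did not move as a block. Nefh, the heavy neurofilament subunit of large axons, had an intensity of 85.3 in the presymptomatic mutant pool, against 1483, 724 and 719 in the presymptomatic, onset and end-stage WT pools (log2 difference -3.32, 9.99-fold lower). Nefm, the medium subunit, had 1412 in the mutant pool, against 3022, 2381 and 2843 (-1.13, and -0.99 ± 0.15 against the 3 WT pools, limma adjusted p = 0.242). Nefl, the light subunit, named after its values were seen, had 16276 in the mutant pool, against 14614, 13308 and 19253, a log2 difference of 0.00. The mutant pool lay below every WT pool for Nefh and Nefm and inside the WT range for Nefl. In bulk cord, fewer cells of a type and less RNA per cell cannot be told apart.

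The cholinergic gene Slc18a3, which encodes the vesicular acetylcholine transporter of motor neurons, had 1135 in the presymptomatic mutant pool, against 839, 610 and 1006 in the WT pools, and was the highest of the 4. The same gene had 430 and 255 in the mutant pools at onset and end stage. Chodl, a marker of fast motor neurons, had 29.5 in the presymptomatic mutant pool, against 262, 167 and 69.2 in the WT pools (-0.92). Calcb, a calcitonin gene-related peptide, had 538 in the mutant pool, against 348, 286 and 493 (0.83). Of 16 motor neuron genes measured, 5 were higher and 10 lower, 2 of them (Nefh and Nefm) by at least 2-fold (12.5%, against 2.64% of all genes), with a median of -0.03 that turned to 0.13, the value of all genes, under the shift to the 75th percentile.

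Transcripts of inhibitory and excitatory signalling were split in the same manner. Slc32a1, the vesicular transporter that loads GABA and glycine, had an intensity of 42.1 in the mutant pool, against 722, 574 and 456 in the presymptomatic, onset and end-stage WT pools (-2.41). Slc6a9, a glycine transporter, had 333 in the mutant pool, against 1162, 801 and 1188 (-1.75). Both genes lay below all 3 WT pools, and both were also lower in the mutant pool at end stage, by log2 differences of -1.27 and -1.51. At onset the differences of the 2 genes were -0.36 and -0.28. The neuropeptide Sst had 1884 in the mutant pool, against 911, 1367 and 1340 in the WT pools (1.09). Npy had 1544, against 890, 1126 and 1332 (0.85), and Tac1, the substance P precursor, had 1399, against 776, 999 and 934 (0.94). The 3 neuropeptide transcripts were above every WT pool. Of 17 inhibitory neuron genes 9 were higher and 8 lower, with a median of 0.01.

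Grin1, the obligate subunit of NMDA receptors, had 704 in the mutant pool, against 1673, 1110 and 1731 in the WT pools (-1.28). Of 10 glutamate receptor or transporter genes measured, this 1 was 2-fold lower (10.0%, against 2.64% of all genes). In so short a list, 1 gene carries little weight. Among 29 genes of neurons and synapses, 4 were at least 2-fold lower (13.8%, against 2.64% of all genes). They were Vamp1 (-1.98), Thy1 (-1.39), Snap25 (-1.12) and Cplx1 (-1.03), of which Vamp1, Snap25 and Cplx1 act in vesicle fusion. Snap25 had 3942 in the mutant pool, against 7530, 8224 and 6117 in the WT pools. The list as a whole had 14 genes higher and 15 lower, with a median of -0.02 (0.12 under the shift to the 75th percentile).

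Myelin genes had 5 of 24 members at least 2-fold lower (20.8%, against 2.64% of all genes) and a median of -0.17. No member was 2-fold higher, where 0.380% of all genes were. Bcas1, expressed by oligodendrocytes as they form myelin, had an intensity of 2097 in the mutant pool, against 7019, 3591 and 5214 in the presymptomatic, onset and end-stage WT pools (-1.86). Qdpr is described above. Mbp, myelin basic protein, had 906 in the mutant pool, against 2451, 1399 and 638 (-1.47). Cldn11, which seals myelin layers, had 46.8, against 474, 182 and 105 (-1.70), and Opalin had 28.5, against 279, 139 and 47.6 (-1.0). Of the 5, Mbp lay inside the WT range, and for Cldn11 and Opalin the WT pools themselves were several-fold apart. Mog, a myelin surface glycoprotein named after its values were seen, had 4365 in the mutant pool, against 4064, 2730 and 4137. Against the onset and end-stage WT pools the median of the myelin list was -0.01 and 0.00, and under the shift to the 75th percentile it turned to 0.08, where all genes had 0.13.

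Insig1, a sterol-regulated membrane protein, and Fdft1, the first enzyme committed to sterols, were the 2 of 20 cholesterol synthesis genes at least 2-fold lower in the mutant pool (10.0%, against 2.64% of all genes). Insig1 had 388 in the mutant pool, against 1356, 920 and 616 in the WT pools (-1.77), and Fdft1 had 545, against 1206, 781 and 808 (-1.12). The list median was -0.03 (0.10 under the shift to the 75th percentile), whereas it was -0.50 at onset and -0.58 at end stage. The presymptomatic WT pool itself stood 0.48 above the WT end-stage pool in this list.

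Astrocyte genes were lower in 12 of 13 (92.3%, against 44.6% of all genes), with a median of -0.12. Only Mlc1, an astrocyte membrane protein, passed 2-fold (7.69% of the list, against 2.64% of all genes). Its intensity was 67.8 in the mutant pool, against 701, 405 and 239 in the WT pools (-2.23), and 907 in the mutant pool at onset. Ndrg2, an abundant astrocyte transcript, had 6606 in the mutant pool, against 10510, 7497 and 10668 (-0.82). Against the onset and end-stage WT pools the list median was 0.00 and 0.01, so a lower median was seen against the presymptomatic WT pool alone. Under the shift to the 75th percentile it turned to 0.09, below the 0.13 of all genes.

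Mitochondrial and energy genes went in both directions. Of 60 mitochondrial ribosome genes, 56 were higher in the mutant pool (93.3%, against 55.3% of all genes), with a median of 0.34. Measured against the WT onset and WT end-stage pools the median was 0.29 and 0.19, and 42 of the 60 lay above all 3 WT pools, as 39.0% of all genes did. The 2 genes that reached 2-fold were Mrpl23, with an intensity of 935 in the mutant pool against 441, 650 and 691 in the WT pools (1.25), and Mrps34, with 556 against 307, 438 and 480 (1.06). Of all genes, 0.380% were at least 2-fold higher. The differences were small for each gene of the list, and the presymptomatic WT pool was the lowest WT pool for Mrpl23 and Mrps34. At onset and end stage the list median was -0.02 and -0.20.

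Respiratory chain genes were higher in 40 of 56 (71.4%, against 55.3% of all genes), with a median of 0.15, against -0.20 at onset and -0.38 at end stage. Their range ran from -0.79 for Ndufb8, with 2362 in the mutant pool against 3902, 4341 and 4372 in the WT pools, to 0.69 for Ndufs7, with 3277 against 1971, 2134 and 2856. None of the 56 reached 2-fold, which 3.02% of all genes did in either direction. Glycolysis genes were lower in 14 of 16 (87.5%, against 44.6% of all genes), with a median of -0.32, and 12 of the 16 lay below all 3 WT pools, as 29.5% of all genes did. Beside Pkm, the phosphofructokinase Pfkm was 2-fold lower, with an intensity of 627 in the mutant pool, against 1310, 1313 and 1218 in the WT pools (-1.04 ± 0.05 against the 3 WT pools, limma adjusted p = 0.122). Pkm and Pfkm made up 12.5% of the glycolysis list, where 2.64% of all genes were 2-fold lower. Under the shift to the 75th percentile, with its median of 0.13 over all genes, the glycolysis median was -0.04, the respiratory chain median 0.41 and the mitochondrial ribosome median 0.42.

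The tricarboxylic acid cycle list had 3 of 15 genes at least 2-fold lower (20%, against 2.64% of all genes). They were Dld (-1.70), Pdha1 (-1.55) and Idh2 (-1.11). Dld, a subunit shared by the ketoacid dehydrogenase complexes, had 183 in the mutant pool, against 726, 758 and 513 in the presymptomatic, onset and end-stage WT pools. Pdha1, the catalytic subunit of pyruvate dehydrogenase, had 692 in the mutant pool, against 1984, 1597 and 901, so here the WT end-stage pool was again the closest. The median of the list was -0.25.

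Genes that glucocorticoids induce were lower in 10 of 10, where 44.6% of all genes were lower, with a median of -0.44. At least 2-fold lower were 3 of them (30%, against 2.64% of all genes). Ddit4, an inhibitor of mTOR signalling, had an intensity of 97.3 in the mutant pool, against 668, 504 and 592 in the presymptomatic, onset and end-stage WT pools (-2.0). Per1, a clock gene, had 60.4, against 411, 272 and 301 (-1.41). Sgk1, a kinase induced by corticoids, had 2400, against 4696, 2644 and 3442 (-1.03). The mutant pool was the lowest for all 3, but the presymptomatic WT pool was the highest, and the list median against the onset and end-stage WT pools was -0.13 and -0.21. At onset and end stage the medians of mutant minus WT were 0.02 and 0.36.

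Of the inflammatory lists that stood high at later stages, complement and phagocyte genes had small medians before symptoms and interferon response genes a larger one. The scale compresses dim genes. Complement genes had a median log2 difference of 0.08, against 1.10 at onset and 1.77 at end stage. Phagocyte genes had 0.02, against 1.07 and 1.20 at the later stages. None of the 14 complement or 15 phagocyte genes was 2-fold higher. Only 0.380% of all genes were, so this count says little about the 2 lists. Genes of disease-associated microglia had 0.03, reactive astrocyte genes 0.04, homeostatic microglia -0.05 and extracellular matrix genes -0.05, the last 2 turning to 0.09 and 0.06 under the shift to the 75th percentile. Cytokine and chemokine genes were higher in 16 of 22 (72.7%, against 55.3% of all genes), with a median of 0.11, and 11 of the 22 lay above all 3 WT pools, as 39.0% of all genes did. The median of this dim list was 0.54 with the regressed noise and 0.62 without background correction. Interferon response genes were higher in 11 of 12 (91.7%, against 55.3% of all genes) with a median of 0.32, against 1.09 at onset and 1.41 at end stage. The presymptomatic median was 0.65 with the regressed noise, 0.70 without background correction and 0.04 without the filter on detection. The same mutant pool against the WT onset and end-stage pools gave medians of -0.04 and 0.22, and 4 of the 12 genes lay above all 3 WT pools, beside the 39.0% of all genes.

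C1qb, a chain of the first complement component, had an intensity of 1752 in the presymptomatic mutant pool, against 998, 1354 and 1590 in the WT pools. Its partner C1qa had 576 in the mutant pool, against 827, 1026 and 1112. These chains of 1 protein complex thus lay on opposite sides of the WT range, while both were far above WT in the mutant pools of onset and end stage (5533 and 6319 for C1qb, 3991 and 4124 for C1qa). Trem2, a microglial receptor, had 761 in the presymptomatic mutant pool, against 576, 583 and 735 in the WT pools. RT1-A1, a class I histocompatibility gene, had 252, against 1016, 1523 and 1161, a log2 difference of -1.91 where the onset and end-stage differences were 1.12 and 1.34. Probes of this gene family can share sequence, so the value of a single family member is uncertain.

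**Figure D4:**
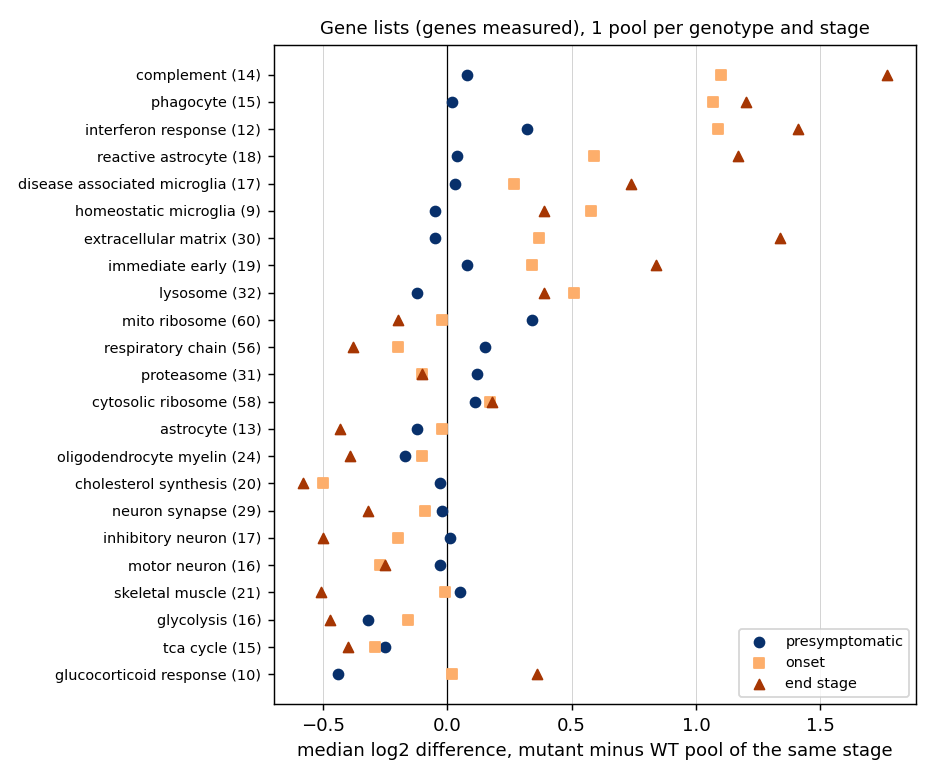
Median log2 difference of mutant minus WT pools of the same stage for 23 gene lists at the presymptomatic stage (circles), onset (squares) and end stage (triangles), with the number of genes measured in brackets. The 7 inflammatory, glial and matrix lists at the top lie between -0.05 and 0.32 at the presymptomatic stage, whereas the mitochondrial ribosome list is highest at that stage (0.34) and the glucocorticoid list lowest (-0.44).

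The 10 genes with the largest excess at end stage were then read at the presymptomatic stage. Cd68, a lysosomal protein of microglia and macrophages, had an intensity of 203 in the presymptomatic mutant pool, against 132, 222 and 172 in the WT pools, and 3449 and 3848 in the mutant pools of onset and end stage. Ngfr, the p75 neurotrophin receptor, had 282 in the presymptomatic mutant pool, against 280, 444 and 277. Lgals3, galectin-3, had 764, against 726, 1059 and 671. In intensity all 3 were inside the WT range, while the normalized log2 level of Cd68, at 7.74, was above the 7.2, 7.54 and 7.46 of the WT pools. Log2 differences of the other genes with an excess at end stage ran from -0.26 for Ncf1 to 0.90 for Gas7. Gas7 had 865 in the mutant pool, against 510, 948 and 461 in the WT pools, also inside the WT range. None of the 10 reached 2-fold, which 3.02% of all genes did in either direction.

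Of the 10 genes with the largest deficit at end stage, Nefh, Pkm and Cabp1 were also at least 2-fold lower before symptoms, where 2.64% of all genes were. At onset none of these 3 was 2-fold lower, with log2 differences of -0.36, -0.17 and -0.42. The other 7 were not 2-fold lower before symptoms. They included Slc18a3 (0.48), the glyoxalase Hagh (0.59) and 5 transcripts of skeletal muscle, among them Ckm, muscle creatine kinase, with 295 in the presymptomatic mutant pool against 571, 883 and 1554 in the WT pools (-0.80), and Tnnc2, fast troponin C, with 877 against 724, 1073 and 2023 (0.35). Muscle transcripts such as Ckm and Tnnc2 do not belong to cord tissue and differed between pools of the same genotype. The summed intensity over the 21 genes of the muscle list was 5564 in the presymptomatic mutant pool, against 5797, 8280 and 11825 in the WT pools. That list is not free of cord transcripts, as it holds Des, which is also listed with pericytes and smooth muscle.

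**Figure D5:**
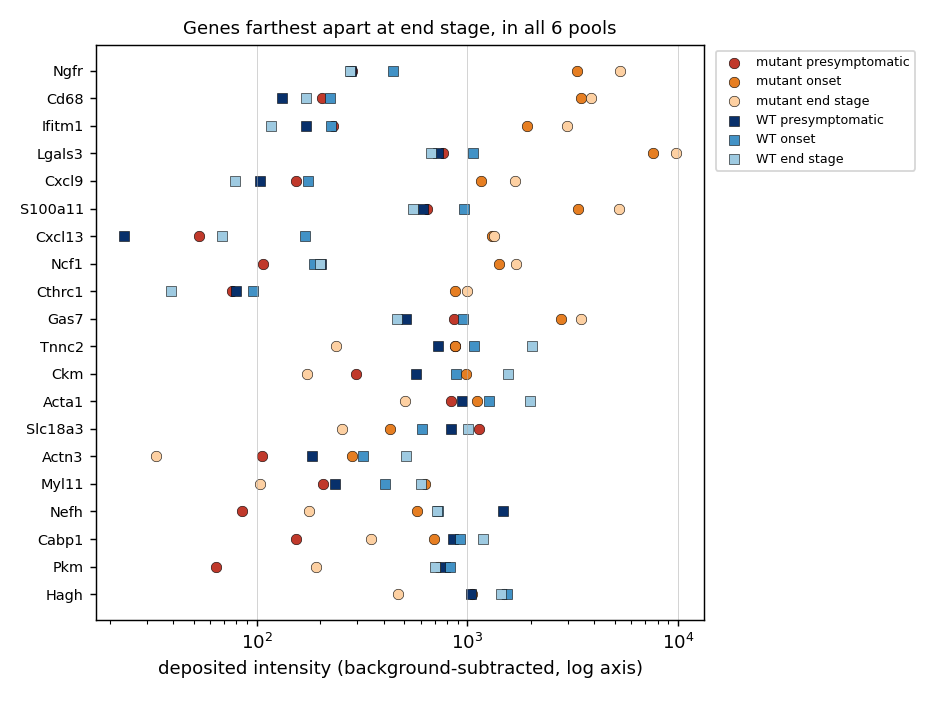
Deposited intensity (log axis) in all 6 pools of the 10 genes with the largest excess (upper) and the 10 with the largest deficit (lower) in the mutant pool at end stage. For the upper genes the presymptomatic mutant pool (red circle) lies near the WT squares, as with Cd68 at 203, and the onset and end-stage mutant pools lie far to the right. For Nefh, Cabp1 and Pkm it lies left of every other pool.

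Some of the deficits were in transcripts of blood and bone. Of the 208 lower genes 199 lay below all 3 WT pools. The other 9, chosen by that position after their values were seen, were Bglap, Defa5, Mbp, Slc24a2, Col1a1, S100a8, Clstn1, Col2a1 and Ahsp. Defa5, a defensin, had an intensity of 340 in the mutant pool, against 1051, 174 and 116 in the presymptomatic, onset and end-stage WT pools. S100a8, a neutrophil protein, had 515 in the mutant pool, against 1161, 286 and 217, and Ahsp, an erythroid chaperone, had 378, against 806, 260 and 150. Bglap, osteocalcin of bone, had 128 in the mutant pool, against 940, 68.2 and 18.2. In each of these 4 genes the presymptomatic WT pool was the highest of the WT pools and the mutant pool came between it and the other WT pools. Of 19 blood genes measured, 3 were higher and 15 lower (78.9%, against 44.6% of all genes). Their median was -0.09 (0.01 under the shift to the 75th percentile). Of the 19, 7 were detected in the WT pool alone and 0 in the mutant pool alone. Those 7 entered only through the pool where they were detected, so their direction carries little weight. Summed over the list, which haemoglobin dominates, the intensity was 51944 in the mutant pool, against 49335, 58814 and 53282 in the WT pools.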

How the data were processed

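RNA of 6 pools (1 per genotype and stage, 5 rats each) was measured on 6 arrays, with 750 ng of RNA labelled per pool, per the labels' protocols. The deposited intensity per probe was already background-subtracted and scaled to means of 330.9 to 332.4 per array. A detection p-value was deposited beside it, from BeadStudio 3.2.6 per the submitters' processing notes. A second deposited table of normalized intensity, by a method not stated in the files or labels, served as an alternative. Probe IDs were sorted as text, and 13192 of 22226 probes had 1 gene symbol in the platform annotation (9034 had none). Of these, 13151 matched a RefSeq gene table of GRCr8.

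Normalization used neqc of limma 3.58.1 under R 4.3.3 (offset 16, quantile, log2). The noise inferred by neqc was far above the SD of 6.52 to 8.46 regressed from detection p-values, hence the understated dim differences. Each gene was represented by its brightest kept probe. Of 63 genes with at least 2 kept probes, 0 had the brightest probe 2-fold lower or higher. Each 2-fold difference counted between the presymptomatic pools thus rests on 1 probe. In 3 of the 63 another probe was at least 2-fold lower and the brightest was not. They were Sqstm1 (-1.89 against 0.26), Cspg5 (-1.13 against 0.45) and Map1b (-1.6 against -0.24). limma compared the mutant pool with the 3 WT pools, two-sided, with Benjamini-Hochberg adjustment over 11237 probes and a threshold of 0.05. It was also run on simulated data in which all probes shared 1 spread. In the real data the SD of the 3 WT pools was 0.01 for Pdia3 and 1.53 for Defa5. The simulation therefore cannot show how the test performs here. Adjusted p-values rest on the spread of WT pools that differ in stage, and the number of arrays limits the precision. No batch is named in the labels.

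Genes named are the 15 largest differences in each direction, the 5 largest bounds, the 10 farthest beyond all WT pools, the 3 smallest adjusted p, the leading members of each of 50 gene lists, and the 10 largest excesses and deficits at end stage. Members and lists were chosen with earlier results of these data known. Probe sequences were not used here.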

Additional observations from a re-analysis of the deposited data

Results flagged for a closer look

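Among the genes chosen for naming, in part for their large differences, 10 were at least 2-fold lower before symptoms and at least 2-fold higher at a later stage. Of all 208 lower genes, 8 (3.85%) were at least 2-fold higher at onset, against 1.89% of all genes. At end stage 8 (3.85%) were, near the 3.66% of all genes. With 1 pool per genotype and stage, none of these differences between stages was tested.

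Tubulin Tubb2b had a log2 difference of -1.07 before symptoms and 1.77 at onset. The astrocyte gene Mlc1 had -2.23 before symptoms and 1.40 at onset, the translation factor Eif5a -2.63 and 1.23, and Psap, the precursor of the saposins of the lysosome, -2.36 and 1.08. Psap had an intensity of 255 in the presymptomatic mutant pool, against 1376, 1156 and 933 in the presymptomatic, onset and end-stage WT pools.

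Pltp, a phospholipid transfer protein, had -1.15 before symptoms, 1.37 at onset and 1.52 at end stage, with an intensity of 835 in the presymptomatic mutant pool, against 1813, 1637 and 2031 in the WT pools. RT1-A1 had -1.91, 1.12 and 1.34 at the 3 stages.

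The collagen genes Col1a1 and Col5a1 had -1.13 and -1.07 before symptoms and 2.02 and 1.03 at end stage. The neutrophil gene S100a8 had -1.13 before symptoms and 1.61 at end stage, and Defa5 had -1.55 and 1.41. For Col1a1, S100a8 and Defa5 the presymptomatic WT pool was the highest WT pool, and their limma differences from the 3 WT pools were 0.00, 0.42 and 0.21.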

How the results depend on the processing

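No paired analysis was possible because each genotype and stage has 1 pool. More genes were lower than higher by 2-fold in each setting, but the counts moved with the treatment of dim probes. With the regressed noise 214 genes were higher and 646 lower, 13 and 290 of them beyond all WT pools. Without background correction these counts were 471, 761, 73 and 358, and with the authors' normalized values 262, 759, 59 and 309. An offset of 50 gave 14 higher and 1 above all WT pools, and the shift to the 75th percentile 0 above all WT pools. The WT end-stage pool in place of the presymptomatic one gave 14 higher and 127 lower. limma called 331 probes with the regressed noise (8 higher, 323 lower), 370 with the shift (39 and 331), 111 with a trended robust prior (10 and 101) and 1193 with the authors' values, where the direction turned (978 higher, 215 lower). The cause was not tested. Without any 1 WT pool limma called 0, with 1 residual degree of freedom.

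With the probe IDs as deposited, 25 genes were higher and 190 lower, and 20 named genes turned: Bhlhe40 (0.44), Cct7 (0.07), Dpy19l1 (0.52), Enpp5 (0.03), Glg1 (0.00), Idh2 (0.71), Kif3c (0.01), Mbp (0.16), Mlc1 (0.12), Nefh (0.61), Pdha1 (0.09), Pfn1 (0.04), Prdx6 (0.36), Prpf19 (0.23), Psap (0.35), Rab1a (0.11), Reep6 (-0.21), Timp2 (0.16), Tubb2b (0.13) and Vamp1 (0.27). Under the other settings no named gene called at 2-fold turned. Each gene name rests on the order of the IDs.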
